A study of Mus musculus with 20 samples.

Results

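The immediate-early response genes were 10 listed genes, Fos, Fosb, Jun, Junb, Jund, Egr1, Egr2, Egr3, Ier2 and Atf3, taken by symbol from a table of 43472 counted genes. All 10 were present in it, and 9 were among the 15261 genes tested. Their counts came from bulk RNA sequencing of the mouse ventral prostate. Males of both genotypes had been orchidectomised, which removes the testes and so the main source of androgen, and then received testosterone or vehicle for 4 days. The ARNoC/Y males (ARNoC) have an androgen receptor changed so that its N-terminal and C-terminal parts cannot contact each other, and the wild type (WT) males were C57BL/6J. The 4 groups were ARNoC with testosterone, ARNoC with vehicle, WT with testosterone and WT with vehicle, with 5 libraries in each. No group kept its testes, and the sources used here give no age, dose or litter.

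Immediate-early genes are transcribed within minutes of a growth factor, stress or hormone signal, from factors already present in the cell, and their mRNAs are short-lived. Fos and Jun family proteins are leucine zipper proteins that pair to form AP-1, which binds TGANTCA sites. The Egr genes encode zinc finger transcription factors. In many cells the signal reaches these genes through serum response factor, which binds the CArG box, and through CREB, which binds TGACG. In the prostate, androgen loss is followed by death of much of the luminal epithelium, and androgen return by its regrowth.

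The following stretches show the letters before the start of Fos and Egr2, which fell with testosterone in both genotypes, and of Jun and Atf3, whose ratio to each other differed between groups. They are the 150 bases before a start annotated in RefSeq promoters of GRCm38.p6, 5′ to 3′ on the strand of the gene. For Egr2 and Atf3 that start lies inside the GENCODE gene whose position is given below, and not at its outer end. Capitals mark every match to a searched motif, on either strand. Fos is at chr12:85473740-85473889 on the plus strand, Egr2 at chr10:67537719-67537868 on the plus strand, Jun at chr4:95052223-95052372 on the minus strand and Atf3 at chr1:191183334-191183483 on the minus strand.
Fos: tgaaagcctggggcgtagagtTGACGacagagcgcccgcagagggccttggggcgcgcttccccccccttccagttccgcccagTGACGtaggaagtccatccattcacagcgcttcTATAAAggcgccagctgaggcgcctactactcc
Egr2: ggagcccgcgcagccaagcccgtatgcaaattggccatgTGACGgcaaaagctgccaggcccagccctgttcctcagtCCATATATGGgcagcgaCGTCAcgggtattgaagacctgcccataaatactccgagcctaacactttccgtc
Jun: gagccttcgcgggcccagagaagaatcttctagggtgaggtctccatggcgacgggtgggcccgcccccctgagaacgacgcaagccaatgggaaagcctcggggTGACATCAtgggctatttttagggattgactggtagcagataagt
Atf3: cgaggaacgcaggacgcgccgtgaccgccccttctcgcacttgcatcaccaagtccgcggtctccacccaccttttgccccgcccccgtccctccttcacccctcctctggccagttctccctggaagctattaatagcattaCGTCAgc

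Of the 10 members, 7 had at least 1 promoter window of 300 bases in that table, 250 before and 50 after the start. Egr1, Egr3 and Ier2 were not matched. The Fos window held TGACG at 129 and 66 bases before the start and TATAAA at 33. Egr2 had 5 windows, of which 4 held a CArG box. Some of these windows overlap and hold the same box, so they are not 4 separate sites. The window printed was chosen among those with the most motif matches. In the one printed, the CArG box began 72 bases before the start, a forward TGACG lay at 111 and a TGACG on the other strand, printed as CGTCA, at 55. The Jun window held TGACATCA, a variant AP-1 or ATF motif, 45 bases before the start. That of Atf3 held TGACG on the other strand 7 bases before the start. Fosb and Junb held TGACG at 60 and 106 bases before the start, Junb also TATAAA just after it, and no searched motif was in the Jund window. Of all 32851 windows, 1.63% held a CArG box, 20.8% TGACG, 1.79% TGACGTCA, which contains TGACG, 7.81% TGANTCA, 3.62% TGACATCA, 13.6% TATAAA and 19.0% AGAACA, the repeated unit of an androgen response element. No window of a member held the androgen response unit, the AP-1 site TGANTCA or the full CREB site. These matches describe letters and not binding.

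In GRCm38, with GENCODE M21 genes, Fos lies at chr12:85473890-85477273 on the plus strand and Fosb at chr7:19302696-19310051 on the minus strand. Both have 4 exons. Jun lies at chr4:95049034-95052222, minus, as a gene of 1 exon. Ier2 and Jund are also single-exon genes, and Junb has 1 exon in its principal transcripts. All 3 are on chromosome 8, Junb at chr8:84974484-84978718, minus, Ier2 at chr8:84661331-84662852, minus, and Jund at chr8:70698949-70700616, plus. The annotated span of Junb is longer than its total exon length of 2301 bases, so it holds more than that exon. Egr1 lies at chr18:34859823-34864984, Egr2 at chr10:67535475-67542188 and Egr3 at chr14:70077203-70082614, all on the plus strand. Atf3 lies at chr1:191170296-191218039, minus, with 4 exons in its principal transcripts. The sources used here give no strand setting for the counting. The last 351 bases of the annotated Junb span overlap Prdx2 on the opposite strand, which reached 3237 counts in a library. Whether they belong to the principal transcript of Junb was not examined. Jun overlaps the antisense gene Junos, which reached 68 counts. The antisense gene Gm11175 covers 919 of the 1668 bases of Jund and reached 8 counts. Reads within these overlaps cannot be assigned to one gene, so values of Junb, Jun and Jund are uncertain to that extent.

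Libraries held 8861646 to 21600352 counts. All 40 pairs of replicates within a group differed beyond sampling noise. The labels do not say whether libraries came from separate animals, so p-values measure only the spread between these libraries, which may be technical. Luminal prostate markers were present in every library, with summed levels of 657559 to 1189650 normalized counts in WT with testosterone and 34078 to 40110 in WT with vehicle. No batch is given in the labels.

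Levels are given as counts divided by the size factor of the library, called normalized counts, and libraries are numbered only to name them. Per kilobase of exon, which allows genes to be compared, Ier2 and Jund stood above the other members in every group. With vehicle in WT, the order was Ier2 at 376 ± 66.1 normalized counts per kilobase, Jund at 282 ± 66.4, Junb at 153 ± 17.1, Fos at 131 ± 64.6, Atf3 at 130.5 ± 30.3, Jun at 93.6 ± 24.6, Egr1 at 83.4 ± 59.8, Egr2 at 7.86 ± 3.26, Fosb at 5.09 ± 1.84 and Egr3 at 0.613 ± 0.642 (SD, n = 5). Neighbours in that order differed by more than the sum of their SDs at 3 places: Jund above Junb, Egr1 above Egr2 and Fosb above Egr3. With testosterone the order of Fos changed. In ARNoC with testosterone, Fos had 40.2 ± 26.1 per kilobase, below Jun at 57.9 ± 33.2, and in WT with testosterone it had 34.5 ± 20.2, below Jun at 49.7 ± 6.95, although neither gap exceeded the spread.

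**Figure D1:**
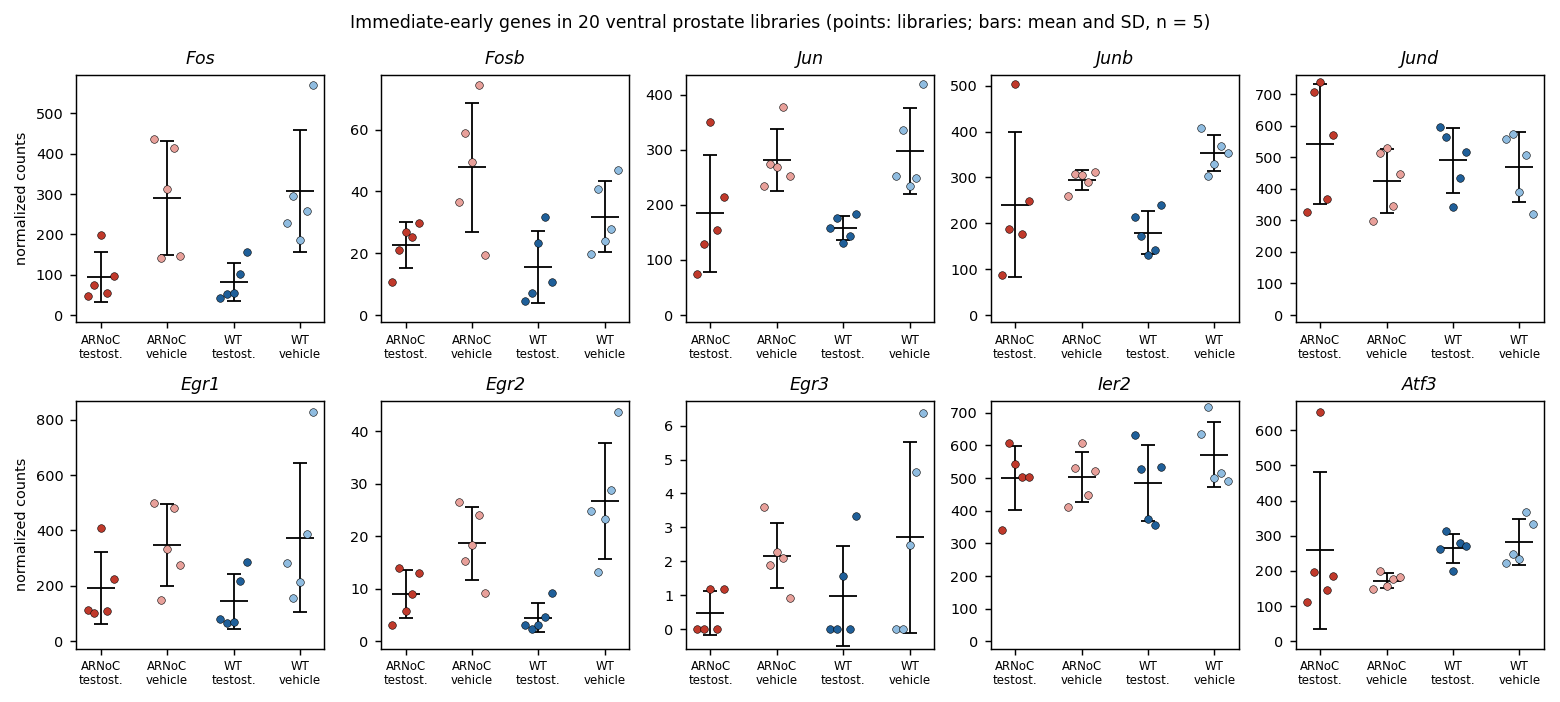
Normalized counts of each of the 10 genes (vertical axis, linear) in the 4 groups (horizontal axis). Points are libraries and bars are the mean and SD of 5. Fos, Jun, Junb and Egr2 of WT with testosterone lie wholly below WT with vehicle, Jund and Ier2 overlap in all groups, and 1 library of ARNoC with testosterone stands high for Jun, Junb, Egr1 and Atf3.

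Several members were lower with testosterone than with vehicle. In WT, 5 of the 9 tested fell (Fos, Jun, Junb, Egr1 and Egr2) and 0 rose, where 18.8% of all tested genes fell and 20.4% rose. In ARNoC, 2 of 9 fell (Fos and Egr2) and 0 rose, against 16.8% and 19.4% of all genes. These calls are edgeR quasi-likelihood tests with Benjamini-Hochberg adjustment at 0.05, and at an unadjusted p below 0.05 also 0 members were higher in either genotype, as by DESeq2 and limma-trend. The median log2 change of the 9 was -0.96 in WT and -0.60 in ARNoC, against -0.02 and -0.01 over all tested genes. Egr2 passed the filter on low counts largely through the vehicle groups, in which 9 of its 11 libraries with at least 10 normalized counts lie, so its place in these counts follows partly from the filter. In bulk tissue, fewer cells of a type and less RNA per cell cannot be told apart.

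Fos, the prototype partner of Jun in AP-1, had 46.8, 74.9, 199, 55.8 and 96.1 normalized counts in ARNoC with testosterone, against 437, 141, 312, 414 and 146 in ARNoC with vehicle. In WT it had 41.6, 53.0, 54.3, 101 and 156 with testosterone, against 228, 294, 186, 258 and 570 with vehicle. The WT groups did not overlap, and in ARNoC 1 library with testosterone reached above the 2 lowest with vehicle. Fos fell 3.07-fold in ARNoC, a log2 change of -1.62 with an SE of 0.45 (edgeR, adjusted p = 0.00747). It fell 3.67-fold in WT, a log2 change of -1.87 with an SE of 0.45 (edgeR, adjusted p = 0.00263).

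Fosb encodes a close relative of Fos that also pairs with Jun proteins. It had 10.6, 21.1, 26.9, 25.2 and 29.7 normalized counts in ARNoC with testosterone, against 36.7, 58.9, 49.4, 74.3 and 19.4 with vehicle. WT libraries had 4.62, 7.07, 23.3, 31.7 and 10.8 with testosterone, against 19.6, 40.6, 24.0, 27.8 and 46.9 with vehicle. Most testosterone libraries were low, but the groups overlapped in both genotypes. The log2 difference was -1.06 in ARNoC (edgeR, adjusted p = 0.0537) and -1.02 in WT (adjusted p = 0.0741), neither past the threshold. Of 32 alternative analyses, 12 called Fosb lower in ARNoC and 4 did so in WT, DESeq2 in ARNoC among them with an adjusted p of 0.0337.

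Jun, the founding AP-1 subunit, had 74.4, 129, 351, 154 and 215 normalized counts in ARNoC with testosterone, against 235, 274, 268, 378 and 253 with vehicle. Those of WT held 159, 176, 130.3, 143 and 184 with testosterone, against 253, 336, 235, 248 and 419.6 with vehicle. The WT groups lay apart, and in ARNoC 1 testosterone library of 351 stood among the vehicle values. Jun fell 1.87-fold in WT (log2 change -0.90, SE 0.28, edgeR, adjusted p = 0.0151). The ARNoC difference of -0.60 was not past the threshold (adjusted p = 0.0954).

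Junb, which pairs with the same Fos proteins as Jun, had 88.2, 187, 504, 178 and 248 normalized counts in ARNoC with testosterone, against 260.2, 307, 305, 289.8 and 313 with vehicle. In WT it had 214, 173, 130.3, 141 and 240.5 with testosterone, against 407, 304, 329, 369.6 and 353 with vehicle. The WT groups did not overlap, and in ARNoC 4 of 5 testosterone libraries lay below every vehicle library while the fifth lay above them all. Junb fell 1.94-fold in WT (log2 change -0.96, SE 0.29, edgeR, adjusted p = 0.0133), and the ARNoC difference was -0.29 (adjusted p = 0.460).

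Jund, the Jun family member that is transcribed steadily in many tissues, had 325, 708, 740.1, 367 and 572 normalized counts in ARNoC with testosterone, against 298, 512, 529, 344 and 445 with vehicle. WT libraries had 597, 563, 341, 433 and 516 with testosterone, against 558, 575, 390.2, 506 and 319.5 with vehicle. The groups overlapped throughout. The log2 difference was 0.35 in ARNoC (95% interval -0.13 to 0.83) and 0.07 in WT (-0.42 to 0.56), with edgeR adjusted p = 0.254 and 0.838.

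Egr1 encodes a zinc finger factor induced by many growth signals. It had 114, 103, 408, 110.4 and 226 normalized counts in ARNoC with testosterone, against 500.4, 148, 334, 482 and 276 with vehicle. Values in WT were 80.1, 66.0, 71.3, 217 and 285 with testosterone, against 282, 156, 215, 388 and 829 with vehicle. Single libraries ranged widely, and the groups overlapped in both genotypes. Egr1 fell 2.52-fold in WT (log2 change -1.34, SE 0.52, edgeR, adjusted p = 0.0462), and this call was lost in 12 of 33 alternatives. Without WT vehicle library 5, which had 829, the log2 change was -0.82 and the adjusted p 0.207. In ARNoC the difference was -0.86 (adjusted p = 0.201).

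Egr2, known for its part in myelinating Schwann cells and in lymphocytes and macrophages, had 3.19, 14.0, 5.86, 9.0 and 13.1 normalized counts in ARNoC with testosterone, against 26.6, 15.2, 18.2, 24.1 and 9.26 with vehicle. In WT it had 3.08, 2.36, 3.10, 4.70 and 9.15 with testosterone, against 24.8, 13.2, 23.2, 28.7 and 43.7 with vehicle. Every WT testosterone library was below every WT vehicle library, while the ARNoC groups overlapped. Egr2 fell 5.45-fold in WT (log2 change -2.45, SE 0.44, edgeR, adjusted p = 0.000179). In ARNoC it fell 2.06-fold (log2 change -1.04, SE 0.40, adjusted p = 0.0481), a call lost in 15 of 32 alternatives, over which the adjusted p ran from 0.00705 to 0.872.

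Egr3, the member of lowest level, was not tested. Its reads summed to 2 in ARNoC with testosterone and 14 in ARNoC with vehicle, and to 5 in WT with testosterone and 14 in WT with vehicle. No library reached 10 normalized counts, and at this depth no difference could be read.

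Ier2, an immediate-early gene of 1 exon whose product is a nuclear protein, had 340.1, 606, 543, 504 and 503 normalized counts in ARNoC with testosterone, against 410.5, 530.1, 607, 449 and 520.4 with vehicle. WT libraries had 633, 529, 374, 357 and 533 with testosterone, against 636, 718, 500.4, 514 and 491 with vehicle. The groups overlapped, and the log2 difference was -0.01 in ARNoC (95% interval -0.35 to 0.34, edgeR, adjusted p = 0.981) and -0.23 in WT (-0.58 to 0.12, adjusted p = 0.294). Both intervals lie within a 2-fold change under scaling by trimmed means. Under scaling by total counts, which lowered the median change of all genes, Ier2 was called lower in WT (log2 change -0.66, adjusted p = 0.00140).

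Atf3 encodes a stress-induced leucine zipper protein that represses many of its targets. It had 112, 197, 652, 147 and 186 normalized counts in ARNoC with testosterone, against 148, 201, 157, 176 and 182 with vehicle. Values in WT were 262, 312, 199, 278 and 271 with testosterone, against 223, 248, 233, 367 and 334 with vehicle. Apart from the library at 652, testosterone and vehicle libraries overlapped. The log2 difference was 0.59 in ARNoC (edgeR, adjusted p = 0.185) and -0.08 in WT (adjusted p = 0.875).

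**Figure D2:**
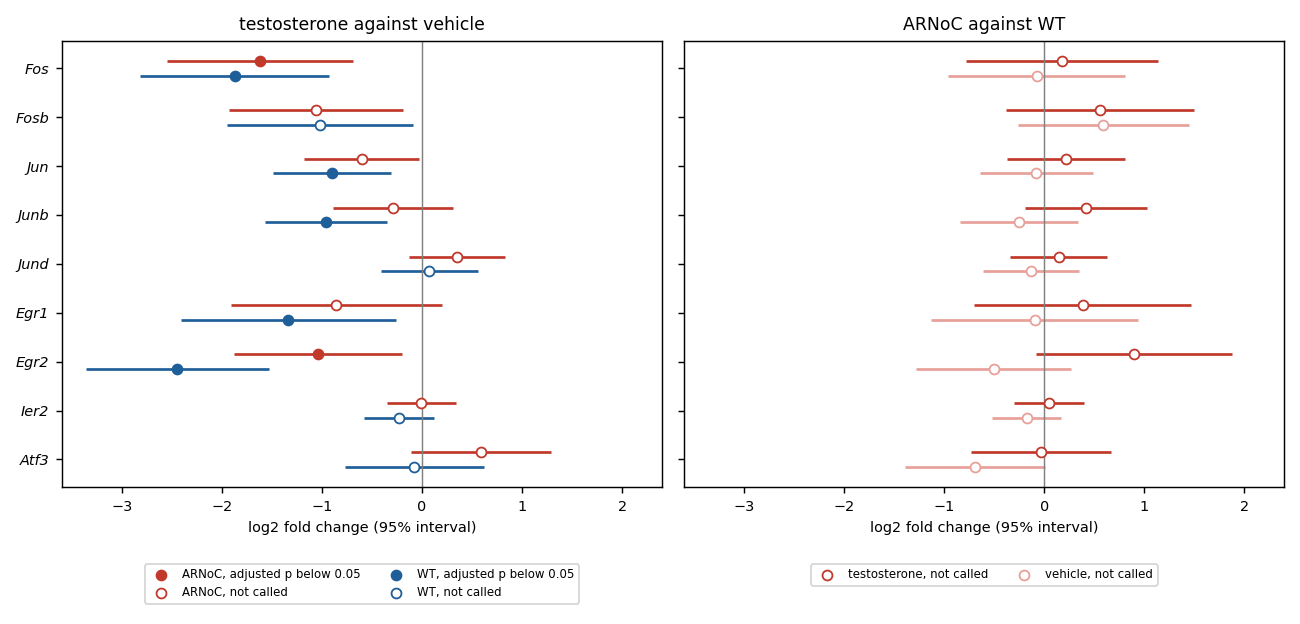
Log2 fold changes of the 9 tested genes (horizontal axis) with 95% intervals, for testosterone against vehicle in ARNoC and WT on the left and for ARNoC against WT with testosterone and vehicle on the right. Filled points have an edgeR adjusted p below 0.05. On the left, Fos and Egr2 are filled in both genotypes and Jun, Junb and Egr1 in WT, and on the right no point is filled.

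Whether all 5 testosterone libraries lay below all 5 vehicle libraries was also counted. That held for 4 of 9 members in WT (Fos, Jun, Junb and Egr2), where 11.9% of all tested genes did so, and for 0 of 9 in ARNoC, where 10.7% did. Both responses are each against their own vehicle group. The difference between them was tested as an interaction, the ARNoC log2 response minus the WT response. It was past the threshold for 0 of 9 members and for 0% of all genes. At an unadjusted p below 0.05, 1306 genes and 1 member passed, and DESeq2 called 25 genes and 0 members. Egr2 was that member, with an interaction of 1.41 (95% interval 0.16 to 2.65, edgeR, adjusted p = 0.531). The intervals of Fos, -1.05 to 1.56, and Egr1, -1.02 to 1.98, were wide, and that of Junb ran from -0.18 to 1.52. A response called in WT alone is therefore not shown to differ from that in ARNoC.

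The genotypes were also set side by side within a treatment. With testosterone, 0 of 9 members differed between ARNoC and WT, where 1.69% of all genes did, and with vehicle 0 of 9, where 0.321% did (edgeR). At an unadjusted p below 0.05 the counts were also 0 and 0, as were those of DESeq2 and limma-trend after adjustment. The largest difference with testosterone was that of Egr2, at 9.03 ± 4.63 normalized counts in ARNoC and 4.48 ± 2.75 in WT (SD, n = 5 each), a log2 difference of 0.90 with a 95% interval of -0.08 to 1.88. With vehicle it was that of Atf3, at 173 ± 21.0 in ARNoC and 281 ± 65.2 in WT. All 5 ARNoC vehicle libraries of Atf3 were below all 5 of WT, as for 0.806% of all genes, with a log2 difference of -0.70 (95% interval -1.39 to 0.00, edgeR, adjusted p = 0.664). With testosterone the difference of Atf3 was -0.03, and without ARNoC testosterone library 3 it was -0.73 (edgeR, adjusted p = 0.0496). That was the only 1 of 33 alternatives past the threshold, and it leaves out the library with the highest Atf3.

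Because a ratio of members within a library does not depend on scaling between libraries, 7 such ratios were compared in the 4 pairs of groups with exact permutation tests, two-sided, 28 in all. The smallest p that 5 against 5 libraries allow is 0.00794, which 5 of the tests reached, with an adjusted p of 0.0444. Jund against Jun was higher with testosterone in ARNoC, at a mean log2 ratio of 1.66 ± 0.59 against 0.58 ± 0.47 with vehicle. The same ratio was higher with testosterone in WT, at 1.61 ± 0.20 against 0.65 ± 0.61. Egr2 against Egr1 was lower with testosterone in WT, at -4.72 ± 0.42 against -3.63 ± 0.39 (SD, n = 5, exact permutation). Atf3 against Jun was higher with testosterone in ARNoC, at 0.36 ± 0.47 against -0.69 ± 0.27 with vehicle. With vehicle it was lower in ARNoC, at -0.69 ± 0.27, than in WT, at -0.08 ± 0.39. With a pseudocount of 5 in place of 0.5, 0 of 28 were past the threshold. The 5 tests share 1 adjusted p, which depends on how many tests reach the smallest p. A count of 0 therefore does not show that each of the 5 ratios changed.

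Single libraries varied more in these genes than in most. The biological coefficient of variation, edgeR's estimate of spread between libraries beyond counting error, was 54.5% for Egr1, 47.5% for Fos, 42.7% for Fosb, 36.4% for Atf3, 36.1% for Egr2, 31.5% for Junb, 30.3% for Jun, 25.5% for Jund and 18.6% for Ier2. The median over tested genes was 14.6%. Egr1 exceeded 95.2% of tested genes and Ier2 62.0%. Over the mean deviation of the 9 members from their group mean, ARNoC testosterone library 3 stood highest at 0.80 (log2) and ARNoC testosterone library 1 lowest at -0.87. Library 3 was the highest of its group for 6 of the 10 genes, and library 1 the lowest for 8. WT testosterone library 5 and WT vehicle library 5 followed at 0.47 and 0.43. Without ARNoC testosterone library 3, 4 members fell in ARNoC: Fos, Jun (log2 change -1.01, adjusted p = 0.00282), Junb (-0.79, adjusted p = 0.00758) and Egr1 (-1.37, adjusted p = 0.0476 by edgeR). Egr2 was then at -0.97 with an adjusted p of 0.0913. Library 3 was singled out by the members' own values, so leaving it out lowers their mean with testosterone. Without ARNoC testosterone library 1, the lowest, 1 member fell in ARNoC, and Egr2 was at -0.87 (edgeR, adjusted p = 0.100).

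Members deviated from their group means together in some pairs and not in others. Of 36 pairs over 20 libraries, 30 had a positive Pearson r and 6 passed an adjusted permutation p of 0.05, all positive. Fos and Egr1 had r = 0.87 (adjusted permutation p = 0.00108) and Spearman rho = 0.76 (adjusted p = 0.00666), and r = 0.82 without the 2 libraries farthest from the median of Fos. Jund and Ier2 had r = 0.83 (adjusted permutation p = 0.00072) and rho = 0.84 (adjusted p = 0.00108), and r = 0.78 without 2 libraries. These pairs did not move with each other, as Fos and Ier2 had r = -0.06 and Egr1 and Ier2 r = -0.24. The other 4 pairs passed by Pearson alone. Jun and Junb had r = 0.82 (adjusted p = 0.0437) but 0.37 without ARNoC testosterone libraries 1 and 3, and Junb and Atf3 had 0.82 (adjusted p = 0.0490) but 0.33 without them, so both relations rest on those libraries. Junb and Jund had r = 0.65 (adjusted p = 0.0437), and 0.49 without the same libraries. Fos and Jun had r = 0.65 (adjusted p = 0.0317), and 0.52 without 2 libraries. Points of a pair share a library and its scaling.

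**Figure D3:**
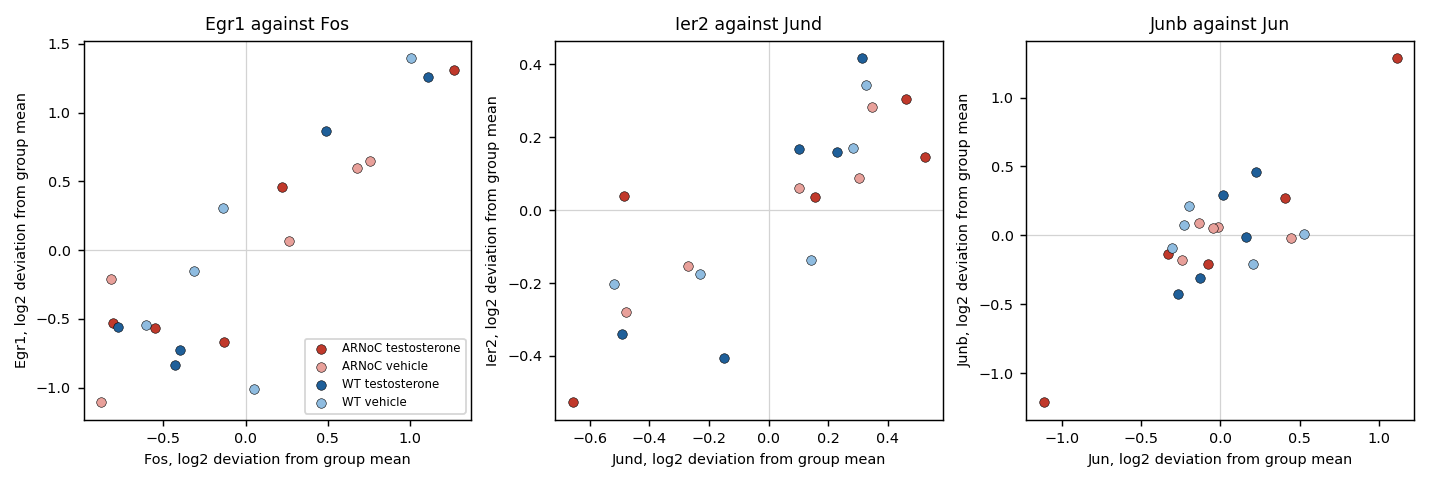
Deviation from the group mean of log2(normalized count + 1) in each of the 20 libraries for Egr1 against Fos, Ier2 against Jund and Junb against Jun, with colours for the 4 groups. Libraries line up in the first and second plots (r = 0.87 and 0.83), and in the third 2 libraries of ARNoC with testosterone lie at the far corners.

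**Figure D4:**
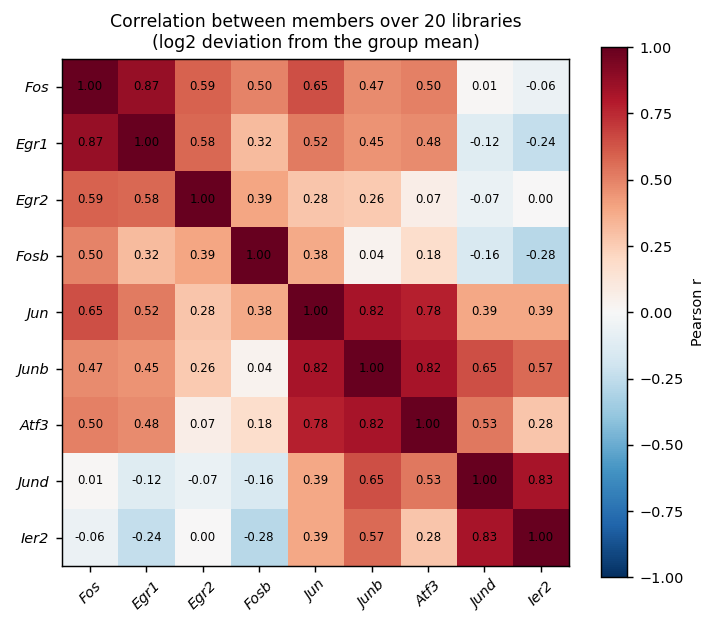
Pearson r between the 9 tested genes over 20 libraries, from deviations of log2(normalized count + 1) from the group mean, with red for positive and blue for negative values. Fos, Egr1, Egr2 and Fosb have positive values among themselves, as do Jun, Junb and Atf3, and Jund with Ier2 (0.83). The order of genes was chosen for the plot, and these sets are not separate. Fos and Jun, for example, have 0.65, above the 0.32 of Fosb and Egr1. Without ARNoC testosterone libraries 1 and 3, values among Jun, Junb and Atf3 are 0.32 to 0.37.

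The 5 other genes whose deviations were most like the members' mean deviation over the 20 libraries, among 11625 candidates with a median r of -0.08, were Klf4 (r = 0.82), Relb (0.82), Slc1a4 (0.80), Cdkn1a (0.79) and Plekhm2 (0.79), with rho of 0.81, 0.76, 0.73, 0.70 and 0.71. Klf4 is a zinc finger factor that is itself on the list of other primary response genes. Their responses to testosterone differed. Relb, an NF-kappaB subunit, fell by 0.86 in ARNoC and by 1.11 in WT on the log2 scale (edgeR, adjusted p = 0.00475 and 0.000623). Slc1a4, a neutral amino acid transporter, rose by 1.48 and 1.43 (adjusted p = 3.65e-06 and 5.39e-06).

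Markers of myeloid cells also differed with treatment. With testosterone, 10 of 11 markers tested were lower in ARNoC and 11 of 11 in WT, among them Cd68, Csf1r and C1qa. Their summed level was 2536 to 4813 normalized counts in ARNoC with testosterone and 2835 to 12015 in ARNoC with vehicle, and 1502 to 3327 in WT with testosterone and 3285 to 17711 in WT with vehicle. No marker of this list was at 0 in any library. Of the 8 fibroblast markers 1 was lower in ARNoC (Lum) and 5 in WT, and of the 7 endothelial markers 0 and 3. Of the 6 lymphocyte markers tested, 4 were lower in each genotype (Cd3e, Cd3g, Cd8a and Nkg7), with a median log2 change of -1.68 in ARNoC and -1.40 in WT. Their 9 listed markers summed to 39.8 to 72.3 normalized counts in ARNoC with testosterone and 109 to 192 in ARNoC with vehicle, and to 47.1 to 84.0 in WT with testosterone and 132 to 253 in WT with vehicle, without overlap. Up to 3 of the 9 were at 0 in a library. Smooth muscle markers went the other way, with median log2 changes of 0.78 in ARNoC and 0.59 in WT. There 4 of 7 were called higher in ARNoC and 1 of 7 in WT. Over all tested genes, 16.8% fell and 19.4% rose in ARNoC, and 18.8% fell and 20.4% rose in WT. The 1 of 8 fibroblast markers lower in ARNoC and the 1 of 7 smooth muscle markers higher in WT did not exceed those shares. The part of lymphocytes in the members' differences was not tested. WT vehicle library 5, with the highest Fos and Egr1, had the highest myeloid, fibroblast and endothelial sums of its group, at 17711, 58517 and 2065. ARNoC testosterone library 3 had the highest myeloid and fibroblast sums of its group, at 4813 and 25591. Other marker sums also stood out. Those of WT vehicle library 5 were 10992 for skeletal muscle and 2871 for erythroid cells, the next highest of its group being 1573 and 1283. The adipocyte sum of ARNoC testosterone library 3 was 6579, the next highest being 2501. That of WT testosterone library 5 was 8780, the next highest being 4528. The mean log2 value of 5 urothelium markers was 8.75 in WT testosterone library 5, the next highest of its group being 5.76. In ARNoC vehicle library 5 it was 9.07, the next highest of its group being 6.75. The part of these tissues was not tested.

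A myeloid score was the mean log2 value of those 11 markers. Over deviations from group means, 45 relations of 9 members with 5 marker scores were computed after the data were seen. With the myeloid score, Fos had r = 0.58, Egr1 0.63 and Egr2 0.60 (adjusted permutation p = 0.0442, 0.0347 and 0.0442), with rho of 0.54, 0.58 and 0.53 (adjusted p = 0.0908, 0.0774 and 0.0990) and r of 0.67, 0.67 and 0.39 without 2 libraries. Ier2 had r = -0.22 and Jund -0.25. With the fibroblast score, Fos had r = 0.63, Egr1 0.67 and Egr2 0.69, and with the endothelial score 0.65, 0.69 and 0.61, all with an adjusted permutation p below the threshold. The remaining scores were those of smooth muscle and prostate luminal markers, and no member passed the threshold with either. Fosb had the largest r with both, at 0.60 with smooth muscle (adjusted permutation p = 0.0815) and -0.35 with luminal markers (adjusted p = 0.313). With the myeloid score as a covariate, an analysis added after the data were seen, 0 members fell in either genotype. Fos was then at -0.74 in ARNoC (adjusted p = 0.209) and -0.39 in WT (adjusted p = 0.659), Egr2 at -0.11 and -0.96 (adjusted p = 0.872 and 0.274), and Egr1 in WT at 0.77 (adjusted p = 0.430). With the fibroblast score as a covariate, 1 member fell in ARNoC (Fos) and 2 in WT (Fos and Egr2). In WT the myeloid score ran from 6.75 to 7.54 with testosterone and from 7.89 to 9.85 with vehicle without overlap, so score and treatment cannot be told apart there. In ARNoC it ran from 7.10 to 8.10 with testosterone and from 7.65 to 9.36 with vehicle. Vehicle library 5 alone made that overlap, the next lowest vehicle score being 8.70, so the ARNoC covariate result can hardly separate them either. The part of myeloid cells, fibroblasts, endothelium and smooth muscle was not tested in any other way.

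**Figure D5:**
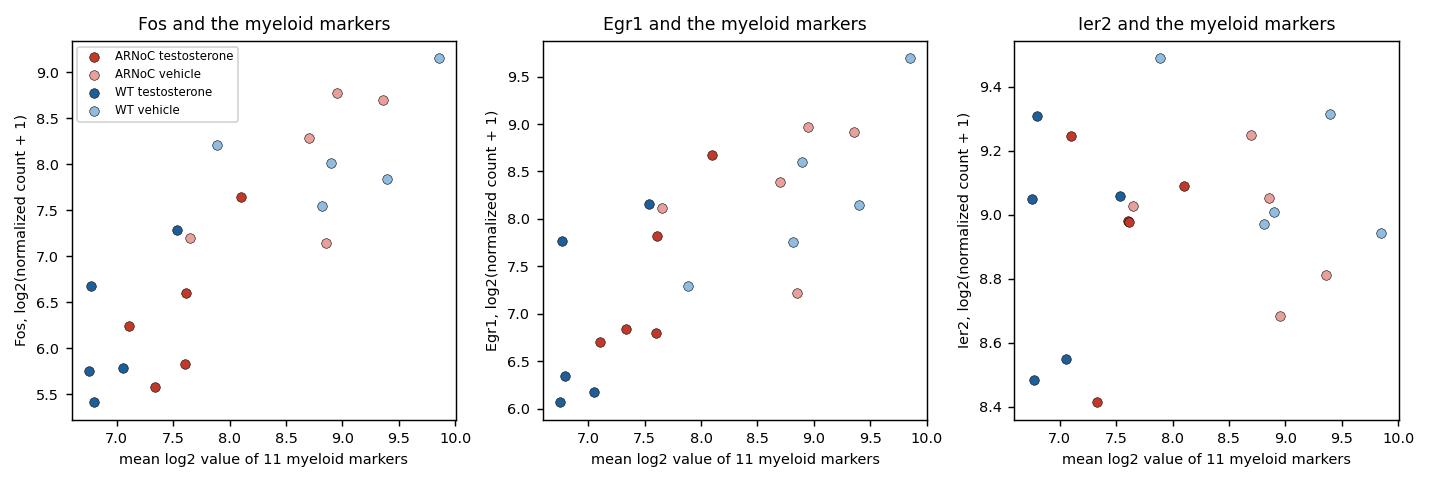
Log2(normalized count + 1) of Fos, Egr1 and Ier2 (vertical axes) against the mean log2 value of 11 myeloid markers (horizontal axis) in 20 libraries, with colours for the 4 groups. Fos and Egr1 are higher in libraries with a higher score, the WT groups do not share any score, and Ier2 shows no such slope.

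Fibroblast sums were lowest for their groups in 2 vehicle libraries, number 5 of ARNoC at 5650 and number 2 of WT at 8118. Without both, an analysis also added after the data were seen, 3 members fell in ARNoC and 5 in WT.

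Other genes of the same pathway were described from lists, with calls by edgeR. Over all tested genes, 19.4% rose and 16.8% fell with testosterone in ARNoC, and 20.4% rose and 18.8% fell in WT. The counts of this list and of each list below are to be read beside these shares, to which several are near. No list was tested as a set. Of 17 genes of upstream control, 4 rose and 5 fell with testosterone in ARNoC, and 3 rose and 7 fell in WT. Mkl2, a coactivator of serum response factor, fell by 0.94 in ARNoC and 0.98 in WT on the log2 scale. Srf itself fell by 0.32 in WT and was at 0.02 in ARNoC, where it was not called. The kinase gene Rps6ka1 rose by 0.42 and 0.29 and the ternary complex factor gene Elk1 by 0.37 and 0.29, the WT values of both turning negative under total-count scaling. The kinase gene Mapk14 fell by 0.23 and 0.19, and Mapk3, which encodes ERK1, by 0.38 and 0.25. The median log2 change of the list was -0.09 in ARNoC and -0.10 in WT.

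Of 14 tested genes of other leucine zipper partners, 3 rose and 2 fell in ARNoC, and 3 rose and 7 fell in WT, with medians of -0.20 and -0.43. Fosl2, which encodes the Fos relative Fra-2, fell in both genotypes. It averaged 1126 ± 383 normalized counts in ARNoC with testosterone and 3225 ± 469.6 with vehicle, and 1648 ± 332 in WT with testosterone and 4815 ± 324 with vehicle (SD, n = 5). The log2 changes were -1.51 and -1.54 (edgeR, adjusted p = 1.33e-06 and 9.47e-07). Atf7 fell by 0.42 in ARNoC and was at -0.17 in WT, where it was not called. Atf4, a factor of the amino acid and stress response, rose by 0.41 and 0.40, but was at -0.023 in WT under total-count scaling. Smaller rises of Mafk (0.30 in ARNoC, with 0.16 in WT not called), Mafg (0.30 in WT, with 0.17 in ARNoC not called) and Atf6 (0.23 in ARNoC and 0.31 in WT) turned negative under that scaling. Fosl1, Batf and Batf2 were too low to test.

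Batf3, a leucine zipper partner known from dendritic cells, was the only listed pathway gene that differed between genotypes. With testosterone it had 9.26 ± 4.38 normalized counts in ARNoC and 2.15 ± 1.44 in WT, a 3.81-fold difference (edgeR, adjusted p = 0.0498). That call was lost in 24 of 32 alternatives. With testosterone against vehicle in WT it fell by 2.06 on the log2 scale (edgeR, adjusted p = 0.00209), and in ARNoC it was at -0.23 (adjusted p = 0.670).

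Of 35 tested genes among other primary response genes, 7 rose and 9 fell in ARNoC, and 5 rose and 13 fell in WT, with medians of -0.29 and -0.52. Sgk1, a kinase gene known to respond to steroid hormones, rose to 3192 ± 867 normalized counts in ARNoC with testosterone against 519 ± 129 with vehicle, and to 2024 ± 396 in WT with testosterone against 503 ± 118 with vehicle. Its log2 change was 2.63 and 2.02 (edgeR, adjusted p = 7.55e-09 and 2.09e-07). Arc, best known as a synaptic immediate-early gene, rose by 2.30 and 1.13, and the antiproliferative gene Btg2 rose by 0.73 and 0.92. Homer1, which encodes a synaptic scaffold, rose by 1.07 in ARNoC and 0.67 in WT. The salt-inducible kinase gene Sik1 fell by 1.10 and 0.88, and Id2, which encodes an inhibitor of helix-loop-helix factors, by 0.75 and 0.65. Klf10 fell by 1.25 in ARNoC and 0.79 in WT, and Gadd45b, a stress response gene, by 0.83 and 1.27. Egr4, Ier5l and Npas4 were too low to test.

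Of 21 tested genes of feedback inhibitors, 0 rose and 6 fell in ARNoC, and 0 rose and 8 fell in WT, with medians of -0.06 and -0.31. Zfp36l1, which encodes a protein that destabilises AU-rich mRNAs, fell by 0.97 in ARNoC and 0.99 in WT (edgeR, adjusted p = 2.90e-07 and 2.19e-07). Nfkbiz, an atypical inhibitor of NF-kappaB, fell by 1.08 and 1.03. Spry1, which restrains growth factor receptors, fell by 0.97 in ARNoC and 0.59 in WT, and Nfkbia, the classical NF-kappaB inhibitor, by 0.27 and 0.51. Dusp2 was too low to test.

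Of 14 heat shock genes, 4 rose and 0 fell in ARNoC, and 0 rose and 1 fell in WT, with medians of 0.28 and 0.09. The mitochondrial chaperone genes Hspe1 and Hspd1 rose by 0.43 and 0.27 in ARNoC, and the cochaperone gene Chordc1 by 0.42, Hspd1 turning negative under total-count scaling. In WT these 3 were at 0.16, 0.20 and 0.25 and not called. Hspa8, a constitutive chaperone gene, fell by 0.53 in WT and was at -0.32 in ARNoC, where it was not called. Total-count scaling moved the median log2 change of all genes by -0.35 in ARNoC and by -0.42 in WT, so these changes are relative to the scaling by trimmed means.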

How the data were processed

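Gene expression was measured by RNA sequencing of ventral prostate in 20 libraries, 5 for each combination of genotype (ARNoC or WT) and treatment (testosterone or vehicle), grouped by the labels. TruSeq libraries were made from RNA of frozen tissue, per the labels' protocols. The authors deposited raw counts per gene symbol, and the signal values deposited beside them are normalized counts, each count divided by the DESeq2 size factor of its library. The size factors are the deposited ratio values. The submitters' processing notes give the build as mm10 and list HISAT2, HTSeq, DESeq2, SAMtools 1.5 and FastQC 0.11.7, and the sources used here state no annotation, strand setting or read filter. Of the normalized values, 100% gave whole counts back within 1e-06, and 0 sample columns were unmatched. Libraries held 8861646 to 21600352 counts, which limits low genes such as Egr3.

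Counts were scaled by TMM and tested in edgeR 4.0.16 (R 4.3.3) by the quasi-likelihood F-test, with 1 mean per group. Genes needed 10 or more normalized counts in 5 or more libraries, which left 15261, and p-values were adjusted over these by Benjamini-Hochberg at 0.05. An SE is the log2 change divided by the root of F. Comparisons were testosterone against vehicle in each genotype, ARNoC against WT in each treatment, and the interaction. Ratios used normalized counts plus 0.5 and exact permutation tests (scipy 1.17.1), and correlations used log2(normalized count + 1) and 100000 permutations of libraries within groups. The members and lists were chosen with earlier results of these data known. All members were named in every comparison. From each pathway list, up to 3 called genes per direction and comparison with the smallest adjusted p were named, of which 2 are left unreported. The 5 genes most like the members needed a mean of at least 50 normalized counts. Alternatives were DESeq2 1.42.0, limma-trend (limma 3.58.1) with pseudocounts 1 and 5, other scalings, no filter, a filter of 50, the compared groups alone, a robust fit and each library left out. Chosen after the data were seen were leaving out the 2 vehicle libraries with the lowest fibroblast sums, the marker scores as covariates and the relations of members with marker scores. Scripts for the tests across genes were tested on simulated data. Positions came from GENCODE M21 (GRCm38, the same assembly as mm10) and promoters from RefSeq. Figures were drawn with matplotlib 3.10.9.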

Additional observations from a re-analysis of the deposited data

Results flagged for a closer look

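Of 40 groups of 5 libraries, one for each member and group, 3 held a library that stood far from the rest by Dixon's gap test, where chance gives about 1 in 20. Fos had 569.8 normalized counts in WT vehicle library 5, the highest of its group. Jun had 378 in ARNoC vehicle library 4, the highest of its group. Atf3 had 652 in ARNoC testosterone library 3, the highest of its group.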

How the results depend on the processing

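Of 3225 single values recomputed under alternatives, 2995 kept their side of the threshold, 193 lost it and 28 gained it. A further 9 reversed in sign while past the threshold in the main or the alternative analysis. Values past it in neither could change sign and still count as kept. The interaction of Fosb, for example, changed sign in 11 of 31 alternatives. Of 1334 counts, 131 moved by over 1.5 times. Unless a value shows it, the cause was not tested. With the myeloid score as a covariate, the WT log2 change of Egr1 was 0.77. Total-count scaling, which shifts all genes, gave in WT -0.023 for Atf4, -0.12 for Mafg, -0.12 for Atf6, -0.13 for Elk1 and -0.13 for Rps6ka1, and in ARNoC -0.0498 for Mafk, -0.12 for Atf6 and -0.073 for Hspd1.

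Genes called with testosterone numbered 5527 in ARNoC and 5985 in WT. Total-count scaling gave 8726 and 10219, with 1178 higher and 7548 lower in ARNoC and 1099 higher and 9120 lower in WT, against 2962 higher and 2565 lower, and 3114 higher and 2871 lower. The myeloid covariate gave 2925 in WT. Members that fell in ARNoC numbered 4 under total-count scaling, 1 without a filter, 1 with a filter of 50, 0 with the myeloid and 1 with the fibroblast covariate. Those that fell in WT numbered 7 under total-count scaling, Ier2 and Fosb being added, and 0 and 2 with the myeloid and fibroblast covariates. ARNoC against WT with testosterone gave 493 genes by DESeq2 and 437 by total-count scaling, against 258, and with vehicle 138 by DESeq2 and 19 in the compared groups alone, against 49. The interaction gave 25 genes by DESeq2, 1 by limma-trend with a pseudocount of 1, 2 by total-count scaling and 2 without a filter. Total-count scaling left 10 pairs of members past the threshold, against 6, and a ratio pseudocount of 5 left 0 ratios.

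Leaving out 1 library at a time gave 4864 to 5740 genes in ARNoC and 5292 to 6231 in WT, 154 to 286 and 29 to 76 between genotypes with testosterone and vehicle, and 0 to 2 for the interaction. Members that fell numbered 1 to 4 in ARNoC and 4 to 6 in WT, and 0 to 1 were lower in ARNoC than in WT with testosterone. It left 0 ratios. Tests that use the shortened group cannot reach the smallest p, and the adjusted p of the remaining tests then rises, since fewer tests share that p. No paired analysis was possible because the labels give no replicate numbers, and the numbers used follow accession order.

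Egr2, Egr3 and Fosb rested on few reads, so depth limits what can be said of them, and the wide spread of Egr1 and Fos limits the interaction.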
